A study of Homo sapiens with 6 samples.

Results

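Messenger RNA of 10 target genes of YAP/TEAD and of actin-regulated MRTF was measured by RNA-seq in the human melanoma cell line A375. The genes were taken by name as CCN1, CCN2, ANKRD1, AMOTL2, AJUBA, TEAD1, LATS2, F3, MYL9 and TAGLN, and all 10 were found among the 28395 genes of the deposited table. The cells, labelled WT for genotype, were cultured for 6 h with 0.01% olive oil (OLO) or 0.01% ozonated olive oil (OZO), with 3 libraries in each group and 6 in all. OLO is the oil from which OZO is made by reaction with ozone, and serves as its control. The labels do not say whether the libraries of a group came from separate cultures, and the study describes its A375 transcriptome data as coming from independent experiments.

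The values used here are the authors' mean log2 CPM (counts scaled to the library size) of each gene over the OLO and OZO libraries together. Levels of single libraries or of a single group were not analysed here, so the effect of OZO on these genes is not given, and a level below carries no spread between libraries. The question addressed is therefore how strongly each target was present in these cells, and what the start sites of the targets hold.

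YAP and its relative TAZ, encoded by YAP1 and WWTR1, are coactivators that enter the nucleus when the Hippo kinases are inactive and bind DNA through the TEAD factors. MRTF coactivators are held in the cytoplasm by monomeric actin. When actin polymerises they reach the nucleus and act with SRF on the CArG box of cytoskeletal and contractile genes. Both pathways respond to cell shape, tension and adhesion, and several genes, CCN1 and CCN2 among them, are known targets of both.

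The start sites of the targets were examined first, since TEAD factors recognise the letters GGAATG, or CATTCC on the opposite strand. RefSeq promoter windows of GRCh38.p14, which run from 250 bases before a start to 50 after it, were matched for 6 of the 10 genes, with 2 start sites each for AMOTL2 and AJUBA and 8 windows in all. CCN1, TEAD1, MYL9 and TAGLN had no matched window. The TEAD letters were found at a start site of 5 of the 6 genes and in 5 of the 8 windows. Of all 35116 promoter windows, 14.0% held them, and of the windows of genes averaging 10 or more reads, 11.5% did. Counted by gene, 16.7% of the 27305 genes with a window held them at a start site. The sequences that follow show where the letters lie. Each runs 5′ to 3′ on the strand of its gene, with the TEAD letters in capitals.
CCN2, the 250 bases before its start, chr6:131951373-131951622, minus strand: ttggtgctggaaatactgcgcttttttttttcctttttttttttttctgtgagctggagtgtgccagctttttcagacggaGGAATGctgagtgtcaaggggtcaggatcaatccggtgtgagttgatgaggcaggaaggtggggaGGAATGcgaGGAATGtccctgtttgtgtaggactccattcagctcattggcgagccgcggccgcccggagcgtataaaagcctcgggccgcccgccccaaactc
ANKRD1, the 250 bases before its start, chr10:90921088-90921337, minus strand: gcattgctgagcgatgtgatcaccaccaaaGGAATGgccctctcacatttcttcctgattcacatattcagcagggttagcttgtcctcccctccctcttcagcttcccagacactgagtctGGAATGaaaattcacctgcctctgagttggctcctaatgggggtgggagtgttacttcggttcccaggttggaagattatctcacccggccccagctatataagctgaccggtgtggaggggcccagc
AMOTL2, the 250 bases before its second start, chr3:134374448-134374697, minus strand: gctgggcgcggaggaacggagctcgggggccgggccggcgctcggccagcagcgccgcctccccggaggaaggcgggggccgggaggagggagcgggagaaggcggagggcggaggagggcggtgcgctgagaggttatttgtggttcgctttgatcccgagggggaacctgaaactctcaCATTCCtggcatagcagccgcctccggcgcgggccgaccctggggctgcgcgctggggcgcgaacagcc
AJUBA, the 250 bases before its second start, chr14:22976843-22977092, minus strand: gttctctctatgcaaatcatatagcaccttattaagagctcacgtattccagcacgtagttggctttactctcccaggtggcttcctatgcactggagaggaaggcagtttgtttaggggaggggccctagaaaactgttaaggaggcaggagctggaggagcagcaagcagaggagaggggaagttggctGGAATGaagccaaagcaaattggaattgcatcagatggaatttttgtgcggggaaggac
LATS2, 30 bases around its start, chr13:21061560-21061589, minus strand: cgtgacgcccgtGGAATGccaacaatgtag

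CCN2 held 3 copies of the TEAD letters, all in the same orientation, beginning 169, 104 and 95 bases before the start. Of all windows, 45 (0.128%) held 3 or more. ANKRD1 held 2 copies in that orientation, beginning 220 and 128 bases before the start, and 1.37% of all windows held 2 or more. AMOTL2 and AJUBA each held 1 copy, 69 and 59 bases before their second starts, and none at their first starts. The copy of AMOTL2 was in the opposite orientation. The single copy of LATS2 began 9 bases after the start base, inside the transcribed part, and F3 held none. The CArG box, searched by its name's letters on both strands, was found in 0 of the 8 windows, and 1.29% of all windows held it. These matches describe letters in the windows. They do not show that a factor bound there, and the windows of the contractile genes MYL9 and TAGLN are not among them.

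**Figure D1:**
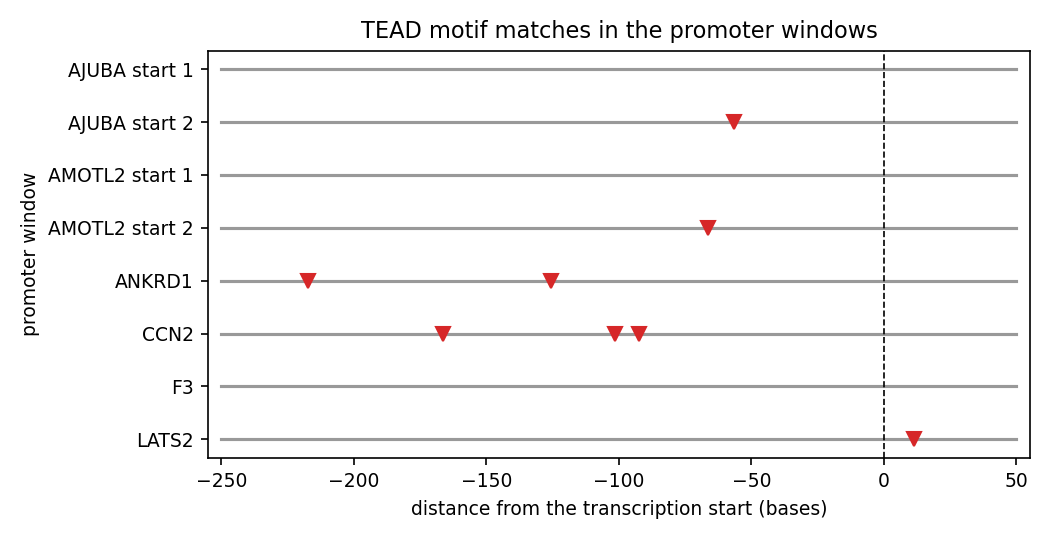
Matches to the TEAD letters in the 8 matched promoter windows. The x axis is the distance in bases from the transcription start (dashed line at 0), each grey line is a window and each triangle is a match. CCN2 carries 3 matches and ANKRD1 carries 2, while F3 and the first starts of AJUBA and AMOTL2 carry none.

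The read depth behind the levels was recovered from the lowest values of the table and gives a library size of 18409903 fragments as the geometric mean, after any scaling by the authors. A read was seen for 21383 genes, and 13773 genes averaged 10 or more reads per library, which are referred to as expressed genes from here on. All 10 targets were expressed genes. Their mean levels ran from 0.42 log2 CPM for MYL9, an implied 24.2 reads per library, to 7.98 log2 CPM for TEAD1, an implied 4653 reads. An implied read number is a geometric mean over the libraries. The median level of the 10 targets was 5.13 log2 CPM, against 4.47 over the expressed genes, with no account taken of transcript length.

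**Figure D2:**
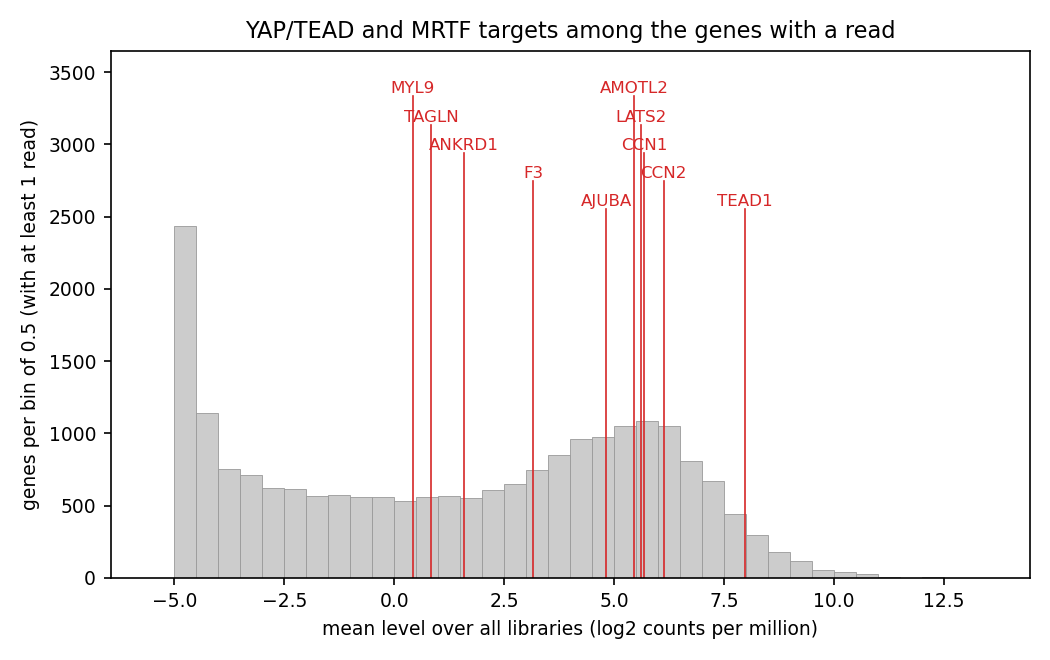
Mean level of the 10 targets (red lines) over the distribution of all genes with at least 1 read (grey bars). The x axis is the authors' mean log2 CPM over all libraries, and the y axis is the number of genes per bin. TEAD1 lies highest at 7.98, and MYL9 (0.42), TAGLN (0.84) and ANKRD1 (1.58) lie lowest.

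Because long transcripts give more fragments, the targets were also ordered per kilobase. For this the CPM was divided by the length of the longest GENCODE 44 transcript in kilobases. An order by CPM alone takes no account of length. On that scale 6 of the 10 targets lay above the median of the expressed genes, which was 2.68 log2 CPM per kilobase over the 13313 of them with a length, and the median of the targets was 2.95. Intervals given with these levels are 95% Poisson intervals of the implied reads per library multiplied by the 6 libraries. Implied reads are a geometric mean, so this product is not the observed total, and the intervals are approximate. They cover counting error only, and fragments without molecular identifiers are not independent molecules.

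The secreted matricellular proteins of the CCN family are widely used readouts of YAP. CCN2, also known as CTGF (chromosome 6, 131948176 to 131951372), had a mean of 6.12 log2 CPM, from an implied 1283 reads per library. Its level per length, 4.90 log2 CPM per kilobase (interval 4.87 to 4.93), was the highest of the 10 and exceeded that of 84.5% of the expressed genes. CCN1, also known as CYR61 (chromosome 1, 85580761 to 85583950), had 5.69 log2 CPM from an implied 948 reads. Per length it stood at 4.06 log2 CPM per kilobase (4.03 to 4.10), above 73.1% of those genes. Both genes were among the 3 most abundant targets per kilobase of the longest transcript. With the median transcript, CCN2 (4.90) and CCN1 (4.61) stood below TEAD1 (6.36), AMOTL2 (5.94) and AJUBA (5.44).

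Genes that belong to the Hippo pathway itself came next. TEAD1 (chromosome 11, 12674421 to 12944737) encodes a TEAD factor, through which YAP binds DNA. It had the highest mean CPM, 7.98 on the log2 scale, and its longest transcript, of 9417 bases, was also the longest among the 10. Per length it had 4.75 log2 CPM per kilobase (4.73 to 4.76), 1.11-fold below CCN2, although TEAD1 stood above CCN2 with the median transcript length. LATS2 (chromosome 13, 20973036 to 21061586), a kinase that phosphorylates and restrains YAP, had 5.61 log2 CPM from an implied 900.0 reads, which is 3.14 log2 CPM per kilobase (3.10 to 3.18).

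AMOTL2 and AJUBA encode junction and scaffold proteins that bind Hippo components. AMOTL2 (chromosome 3, 134355345 to 134375417), of the angiomotin family that holds YAP at junctions, had 5.45 log2 CPM from an implied 804 reads. It had 3.17 log2 CPM per kilobase (3.12 to 3.21). This level and that of LATS2 differed by 0.025 with overlapping counting intervals, so their order is not resolved. AJUBA (chromosome 14, 22971177 to 22982551), a LIM protein that inhibits LATS kinases, had 4.82 log2 CPM from an implied 518 reads. Its 2.76 log2 CPM per kilobase (2.71 to 2.81) lay close to the median of the expressed genes. AMOTL2 and AJUBA have many short annotated transcripts, and their levels per length depended most on the transcript taken. With the median transcript they were 5.94 and 5.44 log2 CPM per kilobase.

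F3 and ANKRD1 were present at lower levels. F3 (chromosome 1, 94529173 to 94541759) encodes tissue factor, which starts the extrinsic pathway of coagulation. It had 3.16 log2 CPM from an implied 164 reads, and 1.96 log2 CPM per kilobase (1.87 to 2.05), above 39.9% of the expressed genes. ANKRD1 (chromosome 10, 90912096 to 90921087), an ankyrin repeat protein first known from muscle, had 1.58 log2 CPM from an implied 54.5 reads. It had 0.74 log2 CPM per kilobase (0.58 to 0.90), above 25.6% of those genes. CCN2 and ANKRD1, which share repeated TEAD letters at their starts, stood at opposite sides of the median level.

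The 2 contractile genes were the least abundant targets. MYL9 (chromosome 20, 36541519 to 36551447), a regulatory light chain of non-muscle and smooth muscle myosin, had 0.42 log2 CPM from an implied 24.2 reads. TAGLN (chromosome 11, 117199294 to 117207465), the actin-binding protein transgelin, had 0.84 log2 CPM from an implied 32.5 reads. Their levels per length, −1.06 (−1.30 to −0.82) for MYL9 and −1.08 (−1.29 to −0.88) for TAGLN, could not be ordered within counting error. With the median transcript TAGLN stood at 0.41, and with merged exons at −1.87. They lay above 10.5% and 10.3% of the expressed genes. ANKRD1, the next gene up, was 3.47-fold higher per length than MYL9. Exons of TAGLN share 2233 of 6550 bases with PCSK7 on the opposite strand, a gene at 5.66 log2 CPM. Whether the counting used strand is not given in the sources used here, so reads of PCSK7 in the TAGLN level cannot be told apart. TAGLN also shares 2498 exon bases with ENSG00000280143 on its own strand, AMOTL2 shares 187 with the pseudogene RPL39P5 and AJUBA shares 50 with ENSG00000259132. Reads from those bases cannot be told apart even with strand, and these same-strand genes had no level of their own in the data. All overlaps are between GENCODE 44 exons, and the exons that the authors counted may differ. Exons of CCN2 share 278 bases with LINC01013 on the opposite strand, which had no read.

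**Figure D3:**
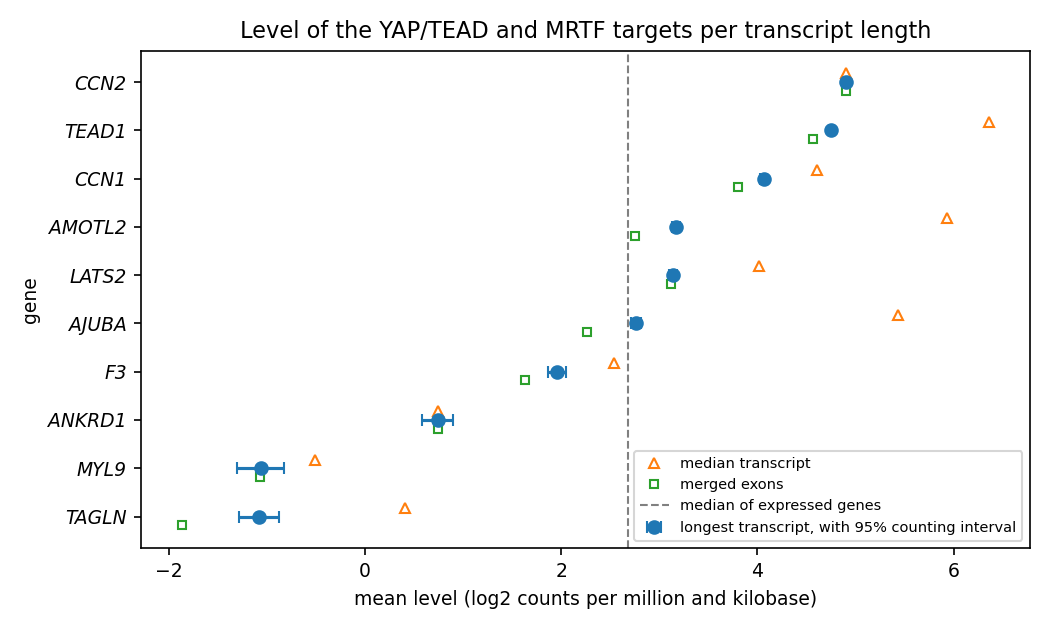
Level of each target per transcript length in log2 CPM per kilobase (x axis). Filled circles use the longest transcript and carry approximate 95% Poisson intervals. Triangles use the median transcript and squares use the merged exons. The dashed line is the median of the expressed genes with the longest transcript (2.68). It is a reference for the circles only. CCN2, TEAD1 and CCN1 lie highest with the longest transcript, and MYL9 and TAGLN lie at −1.06 and −1.08.

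The other genes of the pathways give the setting of these levels. Of 16 listed Hippo components and YAP cofactors, all 16 were expressed, and 12 lay above the median of the expressed genes per length. WWTR1, MOB1A and YAP1 were the most abundant, with 6.21, 5.58 and 5.52 log2 CPM per kilobase, followed by the Hippo kinase STK4 with 4.64. With merged exons STK4 stood below AMOTL1 and LATS1. TAZ and YAP messages were both above that of TEAD1 per kilobase of the longest transcript and with merged exons. In CPM, without a length, WWTR1 stood above TEAD1 and YAP1 slightly below it. Levels with the median transcript are given only for the 10 targets, so this order was not tested with it. Among the TEAD factors TEAD1 was highest, at 4.75 log2 CPM per kilobase, and TEAD4, TEAD3 and TEAD2 had 3.55, 1.19 and 0.996. LATS1, the paralogue of LATS2, had 3.92 against 3.14 for LATS2. SRF had 3.30 log2 CPM per kilobase, and its coactivators MRTFB and MRTFA had 2.51 and 1.55.

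Other known targets spanned a wider range. Of 15 other YAP or TEAD targets, all 15 were expressed and 7 lay above the median per length, against 6 of the 10 described here. Their levels ran from −1.62 to 6.33 log2 CPM per kilobase, with a median of 2.62. MYOF (6.33), AXL (5.82), CRIM1 (5.63) and GADD45A (5.08) each stood above CCN2 (4.90) with the longest transcript. With merged exons GADD45A, at 4.57, stood below it. Of 15 other MRTF or SRF targets, 13 were expressed and 10 lay above the median per length. The cytoskeletal genes ACTB and ACTG1 reached 9.52 and 9.23 log2 CPM per kilobase, and FLNA and TPM4 had 6.84 and 6.56. The actin genes have near-identical copies, so reads of single members are uncertain. The 3 lowest genes of that list were ACTA2, CNN1 and ACTG2, with −0.87, −2.98 and −5.60 log2 CPM per kilobase, while TPM2 and TPM1, which encode tropomyosins, had 6.17 and 5.36. ACTG2 had an implied 0.285 reads per library.

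**Figure D4:**
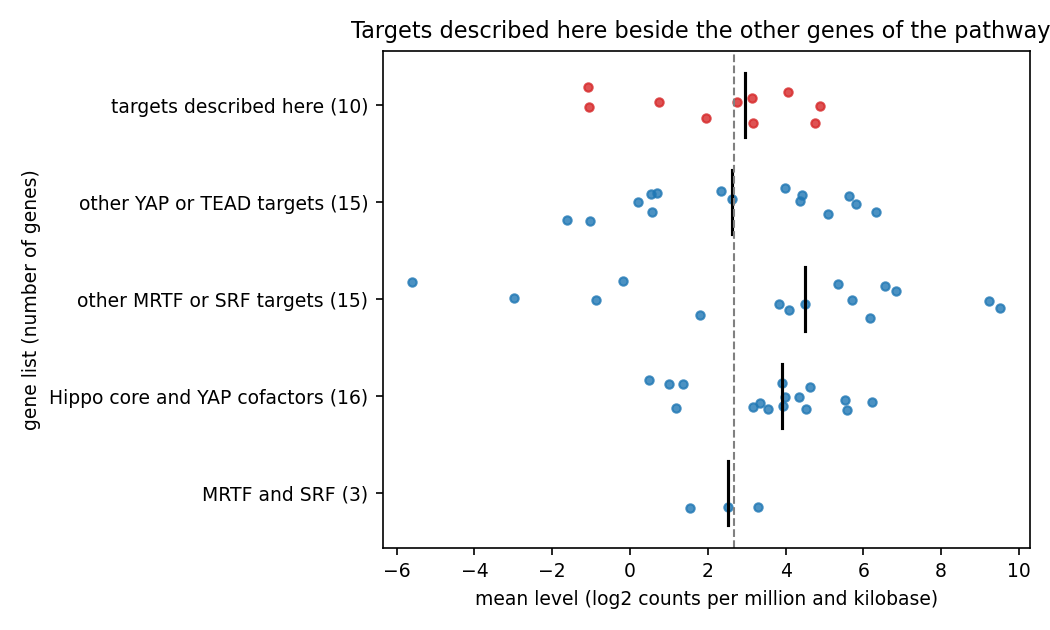
Levels of the 10 targets (red) beside 4 lists of other genes of the same pathways (blue), in log2 CPM per kilobase of the longest transcript (x axis). Each point is a gene, black bars are list medians and the dashed line is the median of the expressed genes (2.68). The list medians are 2.95 for the 10 targets, 2.62 for other YAP or TEAD targets and 4.49 for other MRTF or SRF targets.

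The labelled cell type was examined against its markers. SOX10, the lineage factor of melanocytes, had 5.64 log2 CPM, MITF had 4.76, and NGFR, a neural crest receptor, had 5.24. S100B, of the same marker list, had 1.48 log2 CPM from an implied 51.0 reads. These levels take no account of length. Per kilobase of the longest transcript SOX10 and NGFR lay above the median of the expressed genes, and MITF and S100B lay below it. Of the pigment genes, MLANA had 1.01 log2 CPM from an implied 36.6 reads, PMEL had −1.56 from 5.75 and DCT had −1.81 from 4.74, and TYR had no read in any library. Since contractile genes also mark other cells, markers of those were read beside them. Of 6 fibroblast or smooth muscle markers, 4 were expressed, from COL1A1 with an implied 22.3 reads to SMTN with 782, while MYH11 had no read and DES an implied 0.100 reads per library. Of the keratinocyte markers KRT14 had an implied 77.5 reads and KRT5 had 1.56, and of the endothelial markers PECAM1 had 19.5 and CDH5 had 0.100. All 6 libraries are labelled as A375 cells, and the labels name no other cell type. The part of other cells in the levels of MYL9 and TAGLN was not tested.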

How the data were processed

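RNA-seq libraries of A375 cells treated with OLO or OZO, 3 per group, were made with a strand-specific kit. Per the study's methods the authors aligned reads to hg38 with HISAT2 2.1.0, counted them per gene with featureCounts 2.1.1 and compared groups with limma-voom 3.58.1. The deposited log2 values used here are the mean log2 CPM of each gene over all 6 libraries, for which voom adds 0.5 to every count. The table's other columns hold the authors' own comparison of the groups (log2 fold change, moderated t, p-value, adjusted p-value and log odds). They were not used, and no test between groups was run. The number of columns with values of single samples left out was 0.

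Because voom adds 0.5, the distance of a gene's mean from the lowest value gives a product of odd whole numbers over the libraries. This held within 0.01 for 100% of the 11290 genes with products under 1000. The lowest value, shared by 7012 genes, was taken as no read, and implied reads follow from it. The recovery was tested on counts simulated with the same added 0.5. This checks the calculation but not the assumption of 0.5 in these data. Lengths come from GENCODE 44 (25497 genes matched by Ensembl identifier), and coordinates, counted from 1, from RefSeq GRCh38.p14, the assembly that hg38 denotes. Python 3.11.15, pandas 2.3.3 and SciPy 1.17.1 were used. Motifs were exact letters on both strands, and the CArG box was CC, then 6 bases of A or T, then GG. All 10 targets were described whatever their values, and at most the 4 highest genes of each other list were to be named. TEAD2, TEAD3, TEAD4, LATS1, AMOTL1, the SRF group, TPM1, TPM2, ACTA2, CNN1, ACTG2 and S100B were named beside them after their values were seen. The targets and lists were chosen with earlier results of these data known.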

Additional observations from a re-analysis of the deposited data

How the results depend on the processing

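No paired analysis was possible because the values used are means over all libraries. For the same reason the difference between OZO and OLO, its other tests and filters, and leaving out each replicate in turn were not run. The median level of the 10 targets, 2.95 log2 CPM per kilobase with the longest transcript, was 4.31 with the median transcript and 2.51 with merged exons, as the lengths alone require. It did not move with the canonical transcript. The canonical and merged lengths were chosen after seeing the data. By CPM without a length, all 10 targets lay above the median of all genes. On that scale 6 lay above the median of the expressed genes, because genes with few reads are then left out. Restricting to genes with any read gave 7. The count of targets above the median per kilobase was not repeated with another length. Of 30 single levels recomputed with another length, 15 lay outside their counting interval, which does not cover the choice of length. The 15 inside it were mostly levels whose length did not change, so they could not move. LATS2 and MYL9 with merged exons were the exceptions. Implied reads were the same for all 10 targets when the scale was set by the 5 lowest values. That setting assumes the same odd whole numbers, so it is not a separate check. The same 5 targets were highest in CPM and per kilobase of the longest transcript. With the median transcript the 5 highest per kilobase were TEAD1 (6.36), AMOTL2 (5.94), AJUBA (5.44), CCN2 (4.90) and CCN1 (4.61), so AJUBA took the place of LATS2 (4.02). The TEAD letters were found for 5 genes and the CArG box for 0 in the whole window, which also held for the last 200 bases and for 1 mismatch, respectively. Of all genes with a window, 11.4% held the TEAD letters in the last 200 bases. A CArG box with at most 1 mismatch was held by 9.88% of them. The 6 matched genes are too few to tell 0 from such a share. Depth limits MYL9 and TAGLN most.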
